A study of Mus musculus with 6 samples.

Results

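The vascular and lymphatic endothelium was followed through 40 genes, looked up by symbol among the 55291 genes of the count files in 6 RNA-seq libraries of sorted mouse mammary cells. The genes were chosen from measured values of these same libraries, in which endothelial genes had been seen to differ, so their levels and differences are given as a description and no test of them counts as support. They comprise 22 pan-endothelial, 9 blood capillary, 3 venous, 2 arterial and 4 lymphatic genes. All animals were 6 weeks old and carried Adgra3-Lz/+, a heterozygous reporter allele that puts β-galactosidase under the control of the gene for the adhesion receptor Gpr125. Each sample pooled both abdominal glands of 5 mice. The lymph node was taken out and its place was used to divide the gland into a TEB-distal part, where terminal end buds grow, and a nipple-proximal part. Cells carrying CD31, CD45 or Ter119, surface proteins of endothelial, white and red blood cells, were discarded first, and CD49f-high cells were then sorted by the β-galactosidase substrate FDG. There were 2 libraries each of TEB-distal Gpr125+, nipple-proximal Gpr125+ and Gpr125-negative cells, and the labels assign no side of the gland to the last.

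Endothelial cells form the inner wall of blood and lymph vessels. VEGF receptors and the angiopoietin receptor Tie2 govern their growth and stability, VE-cadherin and claudin-5 seal their junctions, and ETS-family factors such as Erg and Fli1 maintain their gene programme. Arterial, capillary, venous and lymphatic cells add connexins, fenestra proteins, leukocyte-capturing selectins and the regulator Prox1, respectively. In the mammary gland, capillaries surround the ducts and run through the fat pad.

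Library totals lay between 20134890 and 37296640 counts. Levels are given as normalized CPM (counts per 1000000 counts of a library, its size scaled by TMM), on which 3 counts, the limit that a count of 0 allows, correspond to 0.0646 to 0.147 CPM; this limit covers counting error only. The CPM of Adgra3, the gene behind the reporter, was 35.7 and 18.6 in Gpr125-negative, 15.0 and 4.83 in TEB-distal and 19.2 and 12.3 in nipple-proximal libraries. The level was thus not lower in the libraries labelled Gpr125-negative, and the group names here follow the labels alone. Itga6, which encodes CD49f, lay between 62.7 and 191 CPM in all 6 libraries. Markers of basal mammary epithelium, the cell type that CD49f-high gating enriches, summed to 3316 to 21197 CPM and those of luminal epithelium to 1421 to 2906 CPM.

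Promoter sequence was available from RefSeq (build GRCm38.p6) for 22 of the 40 genes, as 250 bases before and 50 after the gene start. The words AGGAAG and CGGAAG, cores of ETS-factor sites that cannot both match at one position, were searched on both strands. At least one of them stood in 12 of the 22 promoters, or 54.5%, against 46.4% of all 27025 promoters. A capillary and venous gene, a venous gene and a lymphatic gene, all described further on, are shown without bases of their annotated exons, 5′ to 3′ on the gene's strand. Capitals mark the words, CTTCCT being AGGAAG read on the other strand.
Emcn, chr3:137340828-137341066, plus strand: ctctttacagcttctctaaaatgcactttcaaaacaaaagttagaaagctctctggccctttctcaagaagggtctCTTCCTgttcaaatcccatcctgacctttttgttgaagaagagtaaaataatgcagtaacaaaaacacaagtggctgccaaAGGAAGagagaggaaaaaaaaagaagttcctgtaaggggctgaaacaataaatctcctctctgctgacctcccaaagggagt
Selp, chr1:164115014-164115263, plus strand: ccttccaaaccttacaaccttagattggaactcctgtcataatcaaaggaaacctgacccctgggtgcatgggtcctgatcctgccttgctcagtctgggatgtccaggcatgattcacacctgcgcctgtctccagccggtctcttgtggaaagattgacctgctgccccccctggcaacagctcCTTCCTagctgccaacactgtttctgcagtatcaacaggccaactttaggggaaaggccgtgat
Prox1, chr1:190170828-190171077, minus strand: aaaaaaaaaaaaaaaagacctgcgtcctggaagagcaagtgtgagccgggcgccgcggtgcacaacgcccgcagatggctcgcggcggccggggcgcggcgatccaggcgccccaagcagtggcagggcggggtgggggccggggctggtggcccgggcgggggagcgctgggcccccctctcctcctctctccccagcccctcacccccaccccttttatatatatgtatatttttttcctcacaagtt
The Emcn window held 2 words, that of Selp 1 and that of Prox1 none. The other word counted in the Selp promoter lay outside the bases shown. These are matches of letters and were not tested as binding sites.

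Transcripts of these genes were abundant in the sorted Gpr125-negative cells although CD31-positive cells had been discarded. In the Gpr125-negative libraries 33 and 31 of the 40 genes reached 1 CPM and 29 and 28 reached 5 CPM. In TEB-distal libraries 17 and 16 reached 1 CPM, and 4 and 8 reached 5 CPM. The nipple-proximal libraries did not resemble one another in this respect, with 32 and 25 genes at 1 CPM or more and 24 and 5 at 5 CPM or more. The median level of the 40 genes was 19.9 and 18.5 CPM in Gpr125-negative, 0.273 and 0.238 CPM in TEB-distal, and 9.45 and 1.37 CPM in nipple-proximal libraries. A Gpr125-negative library held the highest level of 35 genes and a nipple-proximal library that of the other 5. The same was not counted over all genes, so nothing is read from these numbers. In pooled sorted cells, a smaller number of endothelial cells, less RNA per endothelial cell and transcripts made by other cells cannot be told apart.

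**Figure D1:**
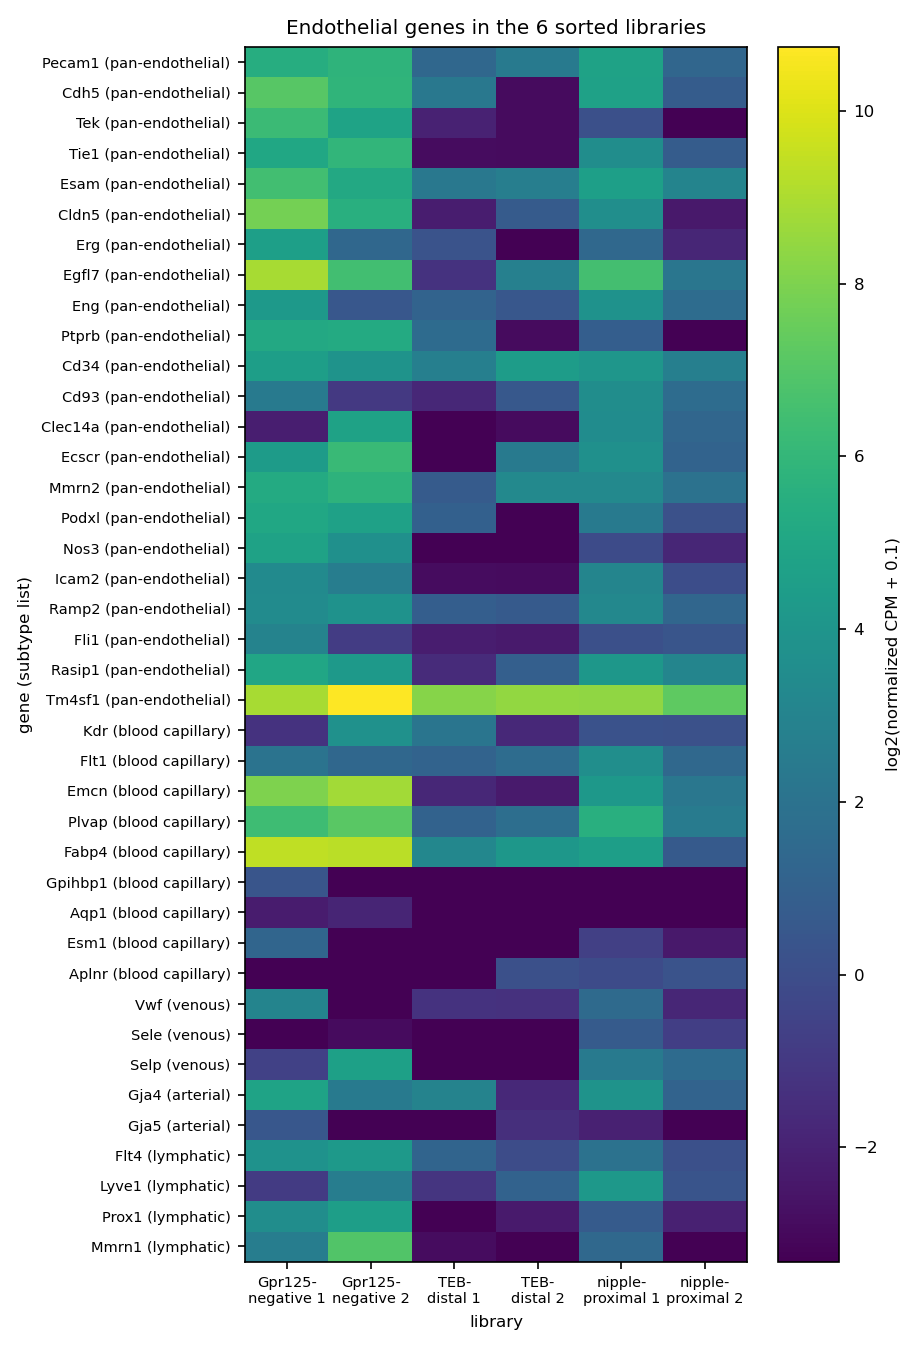
Level of each of the 40 endothelial genes (rows, with its subtype) in each of the 6 libraries (columns), as log2 of normalized CPM plus 0.1. The Gpr125-negative columns are the brightest, with median levels of 19.9 and 18.5 CPM, the TEB-distal columns the darkest at 0.273 and 0.238 CPM, and the nipple-proximal libraries fall between them at 9.45 and 1.37 CPM.

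Among junction genes, Pecam1, which encodes CD31 itself, was at 43.4 and 56.2 CPM in Gpr125-negative, 2.46 and 5.38 CPM in TEB-distal, and 27 and 2.40 CPM in nipple-proximal libraries. Cdh5 (VE-cadherin) was at 138 and 59.3 CPM in Gpr125-negative, 4.80 and 0.034 CPM in TEB-distal, and 26.0 and 1.60 CPM in nipple-proximal libraries. Both genes were higher in both Gpr125-negative libraries than in any other library. Against TEB-distal libraries alone 10.0% of all genes tested separated this way, and against nipple-proximal libraries alone 10.8%. Per kb of exon, the level of Pecam1 relative to Cdh5 was 0.212 and 0.639 in Gpr125-negative and 0.700 and 1.01 in nipple-proximal libraries. It was 0.346 in TEB-distal 1 and 107 in TEB-distal 2, where Cdh5 had 1 count against 158 of Pecam1.

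Cldn5, the main claudin of endothelial tight junctions, had 221 and 46.6 CPM in Gpr125-negative, 0.117 and 1.53 CPM in TEB-distal, and 12.0 and 0.0942 CPM in nipple-proximal libraries. Nipple-proximal 2 thus lay below TEB-distal 2 for this gene. Esam, an adhesion molecule of the same junctions, had 89.6 and 36.1 CPM in Gpr125-negative libraries. It had 4.91 and 6.37 CPM in TEB-distal and 24.7 and 8.00 CPM in nipple-proximal libraries. Its 3 groups did not overlap. Of all genes, 10.0% were lower in this way in TEB-distal and 10.8% in nipple-proximal than in Gpr125-negative libraries. Between the Gpr125+ groups, 18.3% were lower in TEB-distal libraries. The share separating in all 3 was not counted. Egfl7, a secreted endothelial factor, had 474 and 88.4 CPM in Gpr125-negative, 0.312 and 6.77 CPM in TEB-distal, and 94.4 and 4.43 CPM in nipple-proximal libraries. Its Gpr125-negative 2 and nipple-proximal 1 libraries were at a similar level, and 11.2% of its exon length overlaps other annotated genes.

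Of the angiopoietin receptor pair, Tek (Tie2) was at 78.1 and 28.0 CPM in Gpr125-negative, 0.156 and 0.034 CPM in TEB-distal, and 0.982 and 0 CPM in nipple-proximal libraries. Tie1, its partner receptor, was at 32.8 and 61.2 CPM in Gpr125-negative, 0.039 and 0.034 CPM in TEB-distal, and 12.0 and 1.60 CPM in nipple-proximal libraries. Each TEB-distal library held 1 count of Tie1. Tek was thus near 0 in both Gpr125+ populations, whereas Tie1 was detected in both nipple-proximal libraries. The ligand Angpt2, an antagonist of Tie2 that is made largely by endothelium, had 491 and 59.0 CPM in Gpr125-negative, 6.63 and 0.0681 CPM in TEB-distal, and 87.7 and 10.6 CPM in nipple-proximal libraries.

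The VEGF receptors Kdr and Flt1 did not share this pattern. Kdr (VEGFR2), the chief VEGF-A receptor of blood endothelium, was at 0.323 and 13.8 CPM in Gpr125-negative, 4.25 and 0.204 CPM in TEB-distal, and 1.08 and 1.04 CPM in nipple-proximal libraries. Flt1 (VEGFR1), which binds VEGF-A and limits its signal, was at 3.92 and 2.51 CPM in Gpr125-negative, 2.11 and 3.0 CPM in TEB-distal, and 12.1 and 2.59 CPM in nipple-proximal libraries. For both, the range of each group overlapped that of every other. Gpr125-negative 1, with 37296640 counts in all, held 15 counts of Kdr but 11970 of Emcn, so the 2 genes do not stand in a fixed ratio across these libraries.

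The ETS factor Erg was at 24.6 and 2.54 CPM in Gpr125-negative, 1.09 and 0 CPM in TEB-distal, and 2.55 and 0.188 CPM in nipple-proximal libraries. Fli1, its relative, was at 7.83 and 0.474 CPM in Gpr125-negative, 0.117 and 0.102 CPM in TEB-distal, and 0.982 and 1.22 CPM in nipple-proximal libraries. Both were much higher in Gpr125-negative 1 than in Gpr125-negative 2, and the Fli1 level of both nipple-proximal libraries lay between those values. Nos3, the endothelial nitric oxide synthase, was at 27.2 and 13 CPM in Gpr125-negative and 0.835 and 0.188 CPM in nipple-proximal libraries, and had no count in either TEB-distal library. For Nos3, 32.3% of the exon length overlaps other genes. Its count therefore depends on how reads in the overlap were assigned, which was not tested.

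The remaining pan-endothelial genes varied in how far they followed the group. Ptprb, Mmrn2, Podxl, Ecscr, Ramp2, Rasip1 and Tm4sf1 were higher in both Gpr125-negative libraries than in any other library. Of all genes tested, 10.0% separated this way from both TEB-distal libraries and 10.8% from both nipple-proximal libraries. The share separating from both groups was not counted. Clec14a, Cd93, Eng and Icam2 had a nipple-proximal library above a Gpr125-negative one. Cd34, which stem and stromal cells also make, was among the genes that differed least, at 23.5 and 15.1 CPM in Gpr125-negative, 6.71 and 21.5 CPM in TEB-distal, and 16.6 and 6.64 CPM in nipple-proximal libraries. Tm4sf1, a tetraspanin-like protein also present in epithelium, was the most abundant member per kb in 5 of the 6 libraries and ranged from 153 to 1708 CPM. For Rasip1 and Ramp2, 42.9% and 33.4% of the exon length overlaps other genes.

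Among the blood capillary genes, Emcn, Plvap and Fabp4 were abundant in Gpr125-negative cells. Emcn (endomucin), a sialomucin of capillaries and veins, was at 258 and 450 CPM in Gpr125-negative, 0.195 and 0.102 CPM in TEB-distal, and 17.9 and 4.66 CPM in nipple-proximal libraries. Plvap, which forms the diaphragms of fenestrae and caveolae, was at 81.2 and 141 CPM in Gpr125-negative, 2.07 and 3.23 CPM in TEB-distal, and 46.6 and 5.60 CPM in nipple-proximal libraries. For Emcn and Plvap alike, the groups were ordered Gpr125-negative, nipple-proximal and TEB-distal with no overlap. Of all genes tested, 10.0% were lower in this way in TEB-distal and 10.8% in nipple-proximal than in Gpr125-negative libraries. Between the Gpr125+ groups, 18.3% were lower in TEB-distal libraries. The share ordered so across all 3 groups was not counted. Fabp4, a fatty acid-binding protein of capillaries and adipocytes, was at 672 and 631 CPM in Gpr125-negative, 8.89 and 17.4 CPM in TEB-distal, and 23.5 and 1.51 CPM in nipple-proximal libraries, so the Gpr125+ groups overlapped. The adipocyte genes Adipoq, Plin1, Cidec and Lep were each at no more than 0.511 CPM in every library, and Plin1 and Cidec had no count in either Gpr125-negative library. Of the other adipocyte markers, Cfd reached 4.34 CPM in Gpr125-negative 2, Plin4 2.19 CPM in Gpr125-negative 1 and Retn 2.03 CPM in TEB-distal 1. The 7 markers summed to 2.22 to 4.44 CPM in Gpr125-negative, 1.40 to 2.42 CPM in TEB-distal and 0.235 to 0.884 CPM in nipple-proximal libraries, and their part in the Fabp4 levels was not tested.

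Apart from Kdr and Flt1, described above, the other capillary genes were barely detected. Gpihbp1, which anchors lipoprotein lipase on capillaries, had 56 counts in Gpr125-negative 1 and none elsewhere. The water channel Aqp1 had 5 counts in each Gpr125-negative library and none elsewhere. Esm1, a secreted proteoglycan of sprouting tip cells, was at 2.32 CPM in Gpr125-negative 1, 0.540 and 0.0942 CPM in nipple-proximal libraries and 0 in the other 3. Aplnr, the apelin receptor, ran the other way, with no count in Gpr125-negative libraries, 0 and 29 counts in TEB-distal and 17 and 24 counts in nipple-proximal libraries. Its ligand gene Apln was likewise at 0.043 and 0 CPM in Gpr125-negative, 3.20 and 4.49 CPM in TEB-distal, and 4.91 and 1.51 CPM in nipple-proximal libraries.

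Summed by subtype, the 3 listed venous genes were the rarest in both TEB-distal libraries. Without the most abundant gene of each subtype the arterial sum was lower in TEB-distal 1, at 0 against 0.0194 CPM per kb. Selp (P-selectin), which captures rolling leukocytes and is also made by platelets, was at 0.559 and 25.3 CPM in Gpr125-negative and 5.50 and 2.92 CPM in nipple-proximal libraries. Sele (E-selectin), its cytokine-induced relative, had 0 and 1 count in Gpr125-negative and 31 and 11 counts in nipple-proximal libraries. Neither selectin had a count in a TEB-distal library. Vwf, the clotting factor stored in endothelial granules, was at 7.96 and 0 CPM in Gpr125-negative, 0.312 and 0.306 CPM in TEB-distal, and 2.80 and 0.188 CPM in nipple-proximal libraries. Selp and Vwf thus peaked in different Gpr125-negative libraries.

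Of the arterial connexins, Gja4 (connexin 37) was at 28.9 and 5.42 CPM in Gpr125-negative, 7.80 and 0.204 CPM in TEB-distal, and 14.8 and 2.12 CPM in nipple-proximal libraries. All 3 groups overlapped. Gja5 (connexin 40) had 61 counts in Gpr125-negative 1, 8 in TEB-distal 2, 3 in nipple-proximal 1 and none in the other 3 libraries.

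The lymphatic genes Prox1 and Mmrn1 were found mainly in Gpr125-negative cells. Prox1, the master regulator of lymphatic fate, was at 11.6 and 23.7 CPM in Gpr125-negative, 0 and 0.102 CPM in TEB-distal, and 1.52 and 0.141 CPM in nipple-proximal libraries. Mmrn1 (multimerin 1), a secreted protein of lymphatic endothelium and platelets, was at 6.07 and 122 CPM in Gpr125-negative, 0.039 and 0 CPM in TEB-distal, and 2.55 and 0 CPM in nipple-proximal libraries. Flt4 (VEGFR3), the VEGF-C receptor, was at 14.1 and 18.5 CPM in Gpr125-negative, 2.22 and 0.851 CPM in TEB-distal, and 3.83 and 0.989 CPM in nipple-proximal libraries. These 3 genes were higher in both Gpr125-negative libraries than in all other libraries. Against TEB-distal libraries alone this held for 10.0% of all genes, and against nipple-proximal libraries alone for 10.8%. Lyve1, a hyaluronan receptor also carried by some macrophages, was instead highest in nipple-proximal 1, at 18 CPM, and lay between 0.351 and 6.06 CPM in the other libraries. Summed macrophage markers were 3.01 to 19.2 CPM in Gpr125-negative, 3.08 to 3.10 CPM in TEB-distal and 4.28 to 9.23 CPM in nipple-proximal libraries, and their part in the Lyve1 levels was not tested.

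The subtypes were then summed per kb of exon in each library, without 8 genes set aside because other cell types also make them. Selp and Mmrn1, which platelets make too, were kept. Capillary genes summed to 90.4 and 156 CPM per kb in Gpr125-negative, 1.70 and 2.16 CPM per kb in TEB-distal, and 28.3 and 4.34 CPM per kb in nipple-proximal libraries. Lymphatic genes summed to 4.13 and 25.8 CPM per kb in Gpr125-negative, 0.277 and 0.116 CPM per kb in TEB-distal, and 1.08 and 0.137 CPM per kb in nipple-proximal libraries. Venous genes summed to 0.622 and 5.74 CPM per kb in Gpr125-negative, 0.0194 and 0.0191 CPM per kb in TEB-distal, and 1.94 and 0.851 CPM per kb in nipple-proximal libraries. Arterial genes summed to 17.4 and 3.22 CPM per kb in Gpr125-negative libraries. Their sums were 4.63 and 0.169 CPM per kb in TEB-distal and 8.80 and 1.26 CPM per kb in nipple-proximal libraries. TEB-distal 1 and nipple-proximal 1 thus lay above Gpr125-negative 2, and in TEB-distal 1 the arterial sum exceeded the capillary sum. Gpr125-negative 2 had the higher lymphatic, venous and capillary sums of its group, and the lower arterial sum. Its venous sum was almost wholly Selp, at 5.73 CPM per kb, and its lymphatic sum largely Mmrn1, at 20.7 CPM per kb. Without the most abundant gene of each subtype the venous order turned, to 0.496 CPM per kb in Gpr125-negative 1 and 0.0116 in Gpr125-negative 2. The first value was Vwf alone, with 370 counts, and the second was Sele alone, with 1 count. The platelet and megakaryocyte markers summed to 19.3 CPM in Gpr125-negative 1 and 6.91 CPM in Gpr125-negative 2. The capillary share of the summed level of these 32 genes was 16.4% and 41.1% in Gpr125-negative, 15.2% and 14.5% in TEB-distal, and 23.1% and 23.5% in nipple-proximal libraries, so it was nearly the same in both nipple-proximal libraries despite their unequal levels. With all 40 genes it was 28.8% and 31.4%, 4.36% and 5.61%, and 15.0% and 7.98%, in the same order, Tm4sf1 and Fabp4 then carrying much of the sum.

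**Figure D2:**
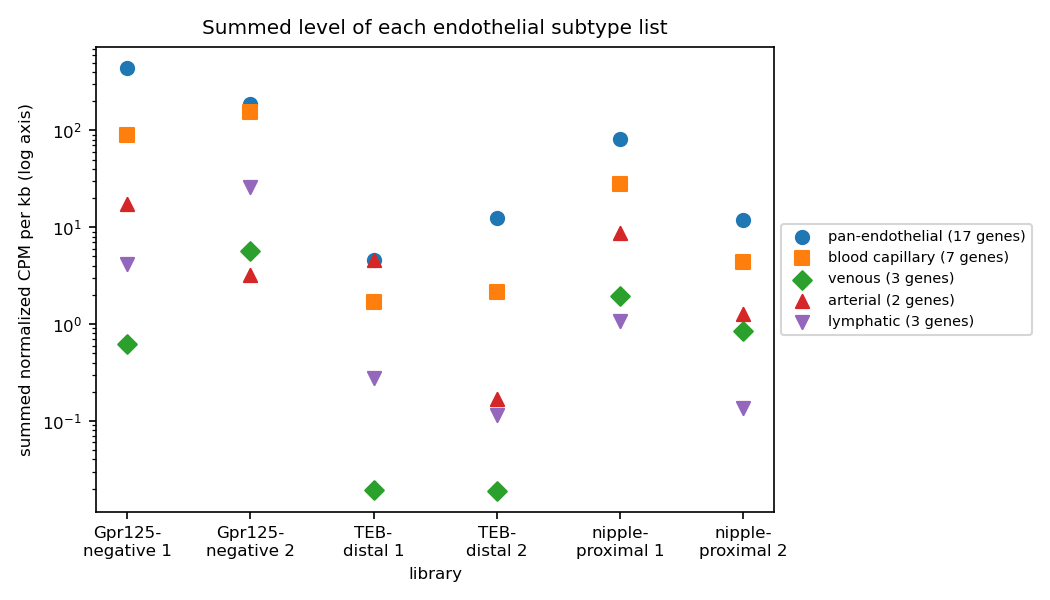
Summed level of each endothelial subtype in each library, in normalized CPM per kb of exon on a log axis, without 8 genes set aside as also made by other cell types. Capillary sums (squares) fall from 90.4 and 156 in Gpr125-negative to 1.70 and 2.16 in TEB-distal libraries, and venous sums (diamonds) are lowest in TEB-distal libraries at 0.0194 and 0.0191.

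Replicates of a group differed in these genes. In the Gpr125-negative pair 10 genes were over 5-fold higher in library 1, among them Vwf, Fli1, Eng and Erg, and 5 were over 5-fold higher in library 2, namely Clec14a, Selp, Kdr, Mmrn1 and Lyve1. In TEB-distal libraries 6 genes were over 5-fold higher in library 1 and 8 in library 2. In nipple-proximal libraries the difference ran one way. Of 37 genes with over 3 counts in either library, 35 were higher in nipple-proximal 1, 18 of them over 5-fold, and the median ratio was 4.81. The same was not counted over all genes, so whether this shift was particular to these genes was not tested.

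**Figure D3:**
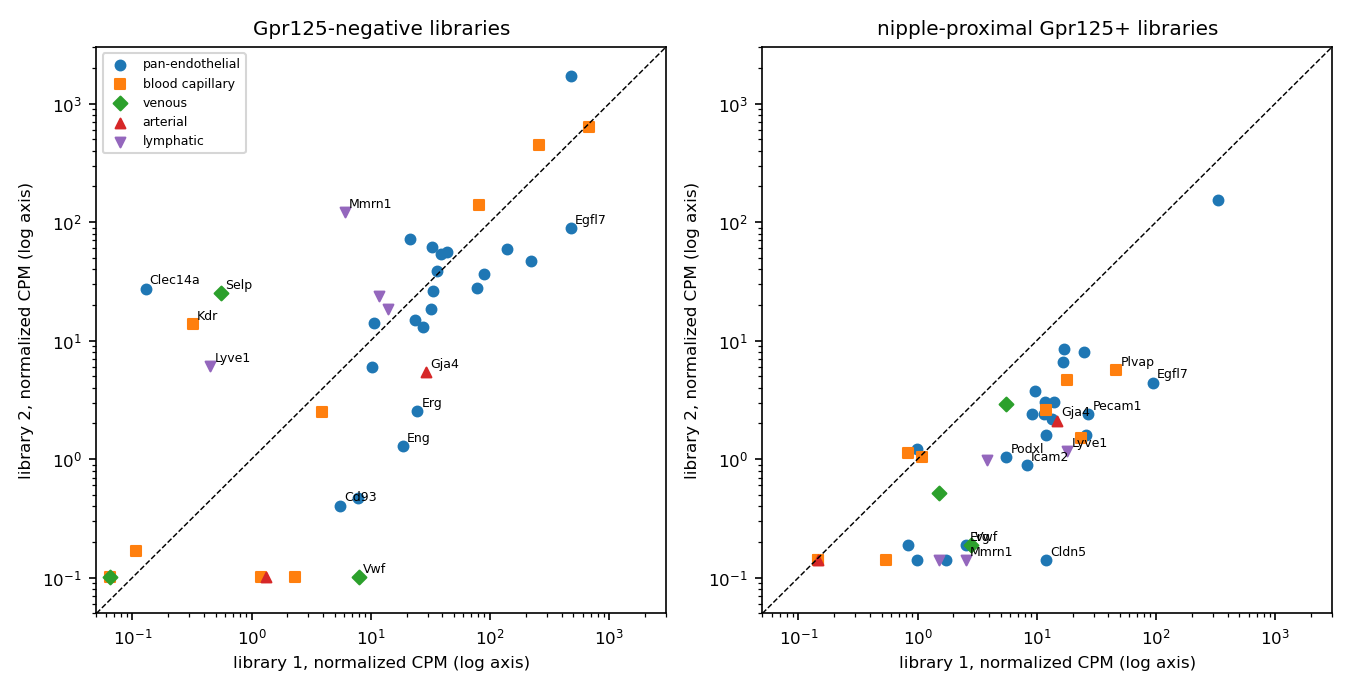
Level of each endothelial gene in library 2 against library 1 of the Gpr125-negative (left) and nipple-proximal (right) groups, in normalized CPM on log axes, with values under 3 counts drawn at 3 counts and the dashed line marking equality. Some of the genes over 5-fold apart are named. The Gpr125-negative points scatter to both sides of the line, whereas 35 nipple-proximal genes are higher in library 1.

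TEB-distal Gpr125+ cells were first set against Gpr125-negative cells. Of the 37 genes that passed the filter on low counts (Gpihbp1, Aqp1 and Gja5 did not), 36 had a lower fitted level in TEB-distal cells, the exception being Aplnr. Their median log2 fold change was -4.63, against 0.03 over all 17268 genes tested, and was again -4.63 with the 5 genes that had no count in one group set to 3 counts. Emcn had a log2 fold change of -11.19 (SE 1.27), Tie1 of -10.17 (SE 1.60) and Plvap of -5.38 (SE 1.17). Smaller differences were found for Pecam1, at -3.67 (SE 1.22), and Esam, at -3.48 (SE 0.92). For 26 of the 37, both TEB-distal libraries lay below both Gpr125-negative libraries, as did 10.0% of all genes.

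By the edgeR quasi-likelihood test at an FDR under 0.1 and at least 2-fold, 0 of the 37 genes and 0% of all genes were called. The smallest adjusted p of the whole table was 0.485, that of Emcn. At an unadjusted p under 0.05, 21 of the 37 were lower, against 2.25% of all genes, and DESeq2 at the same FDR called 22 of 37 lower, against 2.19%. Since the genes were chosen on this contrast, nothing is read from these shares. Groups of 2 against 2 cannot reach a two-sided permutation p under 0.333. The labels do not state separate litters or sorts, so p-values measure the spread between these pools alone.

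Nipple-proximal Gpr125+ cells were set against the same Gpr125-negative libraries, which both comparisons therefore share. The median log2 fold change of the 37 genes was -2.09, with 32 lower and 5 higher, against -0.0032 over all genes. Emcn had a log2 fold change of -4.97 (SE 0.96), Fabp4 of -5.70 (SE 1.36), Tek of -6.75 (SE 1.86) and Tie1 of -2.79 (SE 1.11). Cd93, Flt1, Lyve1, Aplnr and Sele were the 5 with a higher fitted level. Both nipple-proximal libraries lay below both Gpr125-negative libraries for 20 of 37 genes, against 10.8% of all genes, and above both for Aplnr and Sele, against 19.9%. The edgeR test called 0 genes in all (0%). At an unadjusted p under 0.05, 10 of 37 were lower, against 0.927%, and DESeq2 called 5 of 36, namely Emcn, Fabp4, Nos3, Prox1 and Tek, against 0.789%. Without nipple-proximal 1 the median moved to -4.17.

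TEB-distal was last compared with nipple-proximal, both Gpr125+. The median log2 fold change was -2.34, or -2.26 with the 4 genes that had no count in one group set to 3 counts, with 32 of 37 lower in TEB-distal cells, against a median of 0.06 over all genes. Both TEB-distal libraries lay below both nipple-proximal libraries for 16 of 37 genes, against 18.3% of all genes. Among these were Emcn, Tie1, Plvap, Clec14a, Icam2, Nos3, Selp and Sele. The edgeR test called 0 genes (0%), 9 of 37 were lower at an unadjusted p under 0.05, against 1.46%, and DESeq2 called Clec14a, Emcn, Icam2, Selp and Tie1, against 0.507%.

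This difference rested largely on 1 library. Without nipple-proximal 1 the median was -0.016, with 20 genes lower and 17 higher among 38, and without nipple-proximal 2 it was -3.14, with 37 of 39 lower. Without nipple-proximal 1, Pecam1 was at 0.70, Cdh5 at 0.59, Flt4 at 0.63 and Cldn5 at 3.07, thus higher in TEB-distal cells. Emcn, Tie1, Clec14a and Selp stayed lower in TEB-distal cells without either nipple-proximal library.

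**Figure D4:**
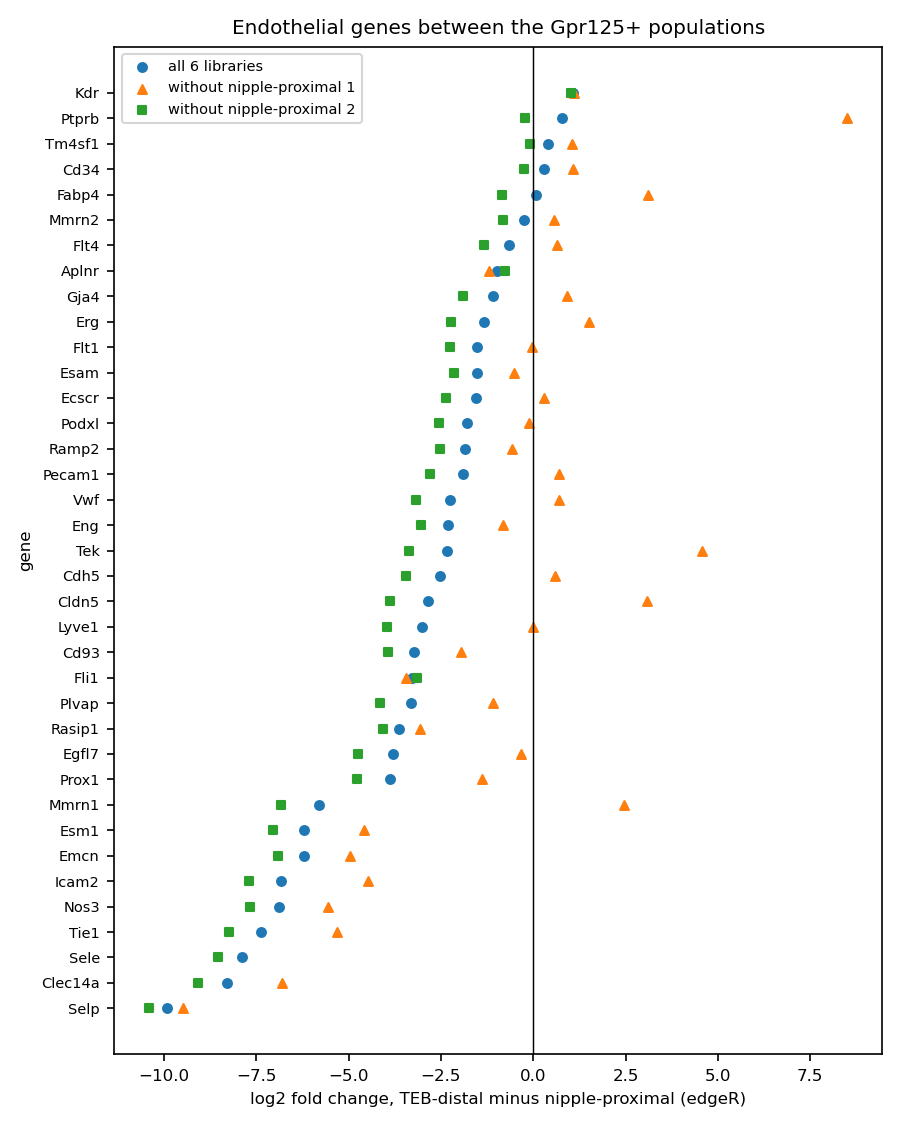
Fitted log2 fold change of 37 endothelial genes in TEB-distal relative to nipple-proximal cells (negative values are lower in TEB-distal), from all 6 libraries (circles) and without nipple-proximal 1 (triangles) or 2 (squares). Without nipple-proximal 1 the triangles lie on both sides of 0, with a median of -0.016.

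Other genes of endothelial pathways were taken from a list of 58 ligands, receptors, transcription factors and subtype genes, 49 of which passed the filter. Some, such as Vegfa, Adm and Klf4, were also abundant in the Gpr125+ libraries, so this is not a list of endothelial markers alone. Of these 49, both TEB-distal libraries lay below both Gpr125-negative libraries for 20, against 10.0% of all genes, and above both for 4 (Apln, Hey2, Klf4 and Lpl), against 14.0%. Both nipple-proximal libraries lay below both Gpr125-negative ones for 14 of the 49, against 10.8%, and above both for 5, against 19.9%. Both TEB-distal libraries lay below both nipple-proximal ones for 18, against 18.3%, and above both for 7, against 15.2%. By edgeR no gene of the list was called in any comparison. DESeq2, which tested 53 of them, called 16 lower (2.19% of all genes) and 1 higher (3.24%) in TEB-distal and 2 lower (0.789%) and 2 higher (1.19%) in nipple-proximal than in Gpr125-negative cells, and 5 lower (0.507%) and 0 higher (0.236%) in TEB-distal than in nipple-proximal cells. Among the 20 were Robo4, S1pr1, Adgrl4, Adgrf5, Angpt2 and Gata2. Robo4, an endothelial guidance receptor, was at 15.8 and 7.42 CPM in Gpr125-negative, 0 in both TEB-distal, and 7.81 and 0.612 CPM in nipple-proximal libraries. S1pr1, the sphingosine phosphate receptor that stabilizes vessels, was at 44.7 and 74.8 CPM in Gpr125-negative, 0.039 and 0.034 CPM in TEB-distal, and 36.3 and 5.27 CPM in nipple-proximal libraries. For both, nipple-proximal 1 again exceeded nipple-proximal 2.

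The ligand genes Vegfa and Adm ran otherwise. Vegfa, the main vascular growth factor, was at 283 and 577 CPM in Gpr125-negative, 334 and 785 CPM in TEB-distal, and 969 and 1219 CPM in nipple-proximal libraries. Adm, adrenomedullin, whose receptor includes the member Ramp2, was at 315 and 888 CPM in Gpr125-negative, 365 and 1493 CPM in TEB-distal, and 1896 and 2405 CPM in nipple-proximal libraries. Both ligands overlapped between TEB-distal and Gpr125-negative cells and were higher in both nipple-proximal libraries than in any other. Of the 8 ligands tested, 3 (Adm, Apln and Vegfa) were higher in both nipple-proximal than in both Gpr125-negative libraries, against 19.9% of all genes. Both TEB-distal libraries lay below both nipple-proximal ones for 3 ligands (Adm, Angpt2 and Vegfa), against 18.3%. Of the 15 transcription factors tested, 5 (Foxc2, Gata2, Hey1, Hhex and Sox18) were lower in both TEB-distal than in both Gpr125-negative libraries, against 10.0% of all genes, and 2 (Hey2 and Klf4) were higher in both, against 14.0%.

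Markers of the other cells that the gate could hold were summed beside these genes. The 32 endothelial genes left without those 8 summed to 1698 and 1411 CPM in Gpr125-negative, 37.9 and 47.8 CPM in TEB-distal, and 387 and 62.4 CPM in nipple-proximal libraries. The 10 leukocyte markers summed to 23.6 to 73.8 CPM in Gpr125-negative, 32.3 to 33.1 CPM in TEB-distal and 51.0 to 65.3 CPM in nipple-proximal libraries, so they did not move with the endothelial sum. The 8 pericyte markers, of cells that wrap capillaries, summed to 12.7 to 27.9 CPM in Gpr125-negative, 1.67 to 5.26 CPM in TEB-distal and 3.88 to 23.8 CPM in nipple-proximal libraries. Rgs5, a defining pericyte gene, was at 0 and 18.5 CPM in Gpr125-negative, 0 in both TEB-distal, and 0.540 and 15.7 CPM in nipple-proximal libraries. Des, another of them, was at 2.75 and 3.49 CPM in Gpr125-negative, 0 in both TEB-distal, and 0.982 and 1.04 CPM in nipple-proximal libraries. It was thus nearly equal in the nipple-proximal libraries, where the endothelial sum was not. Notch3 was at 2.17 and 0.0339 CPM in Gpr125-negative, 3.16 and 1.63 CPM in TEB-distal, and 1.33 and 2.97 CPM in nipple-proximal libraries. Cspg4 was at 4.48 and 0.305 CPM in Gpr125-negative, 0 in both TEB-distal, and 0 and 2.35 CPM in nipple-proximal libraries. Pdgfrb was at 2.97 and 5.62 CPM in Gpr125-negative and at 0.034 to 2.11 CPM elsewhere. Erythroid markers summed to at most 1.32 CPM in any library, and the 5 platelet and megakaryocyte markers to 1.60 to 19.3 CPM. Fibroblast markers summed to 28.6 to 145 CPM in Gpr125-negative, 89.8 to 172 CPM in TEB-distal and 52.6 to 69.0 CPM in nipple-proximal libraries. Basal epithelial markers summed to 3316 to 3358 CPM in Gpr125-negative, 3585 to 21197 CPM in TEB-distal and 9047 to 14162 CPM in nipple-proximal libraries. The part of these lists in the endothelial levels was not tested.

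**Figure D5:**
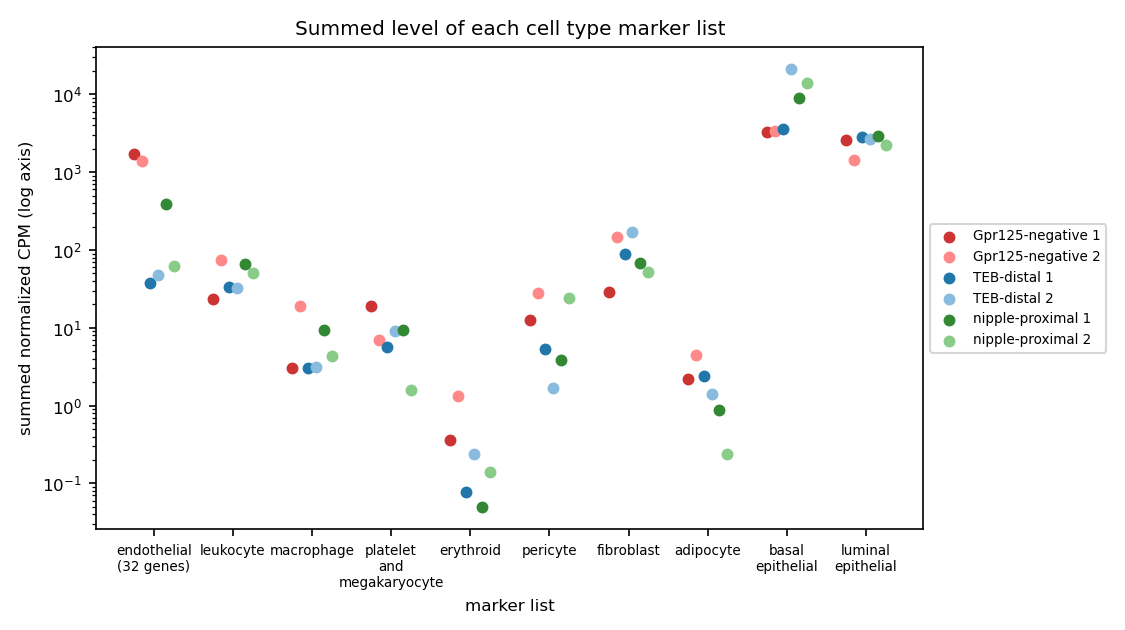
Summed level of each marker list (horizontal axis) in each of the 6 libraries (coloured points), in normalized CPM on a log axis. The 32 endothelial genes spread from 37.9 to 1698 CPM with both Gpr125-negative libraries on top, whereas leukocyte markers stay between 23.6 and 73.8 CPM.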

How the data were processed

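RNA from 6 sorted samples, 2 per group, was sequenced, and the authors deposited a table of raw counts per gene for each library, made by alignment to the mouse genome mm10 and counting of reads over genes. The submitters' processing notes name CASAVA and STAR 2.7.3. The annotation release and the strand setting are not given in the sources used here. No molecular identifiers are described, so counts are of reads. Totals were 20134890 to 37296640 per library. The 40 genes, the gene lists and the thresholds were chosen with earlier results of these data known, and groups follow the labels.

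All 6 libraries entered 1 edgeR 4.0.16 model (R 4.3.3, limma 3.58.1), with TMM scaling, filterByExpr and robust quasi-likelihood tests, in which 17268 of 55291 genes passed the filter. The biological coefficient of variation was 0.967. Calls needed an FDR under 0.1 (Benjamini-Hochberg) and at least 2-fold. The SE is the fold change over the square root of F. DESeq2 1.42.0 was an alternative, as were other size factors, filters, left-out libraries and a replicate block. Levels per kb used merged exons of GENCODE M21 (GRCm38). Genes with values in every library were a fixed list of defining genes, with the others by range. Fibroblast, adipocyte and other marker genes were also fixed lists. The fitting was also run on simulated counts, whose outcome is not given here and is not used as support.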

Additional observations from a re-analysis of the deposited data

Results flagged for a closer look

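Ccl21a, a chemokine gene of lymphatic endothelium that is not among the 40 genes, moved in opposite directions in the Gpr125+ groups relative to Gpr125-negative cells. It was at 0.968 and 2.03 CPM in Gpr125-negative, 0 in both TEB-distal, and 43.3 and 9.89 CPM in nipple-proximal libraries. With TEB-distal libraries set at 3 counts each, its mean level was at least 243-fold higher in nipple-proximal cells, or at least 395-fold from nipple-proximal 1 alone and 90.2-fold from nipple-proximal 2 alone. Direction in every library is what singled it out. The edgeR fit did not call it in any comparison, whereas DESeq2 called it in all 3, lower in TEB-distal and higher in nipple-proximal than in Gpr125-negative cells and lower in TEB-distal than in nipple-proximal cells. Near-identical copies of this gene share its reads, so the count is uncertain.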

How the results depend on the processing

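The edgeR test called 0 genes in each comparison, and likewise with DESeq2 size factors, without robust estimation, with only the 4 compared libraries and at an FDR under 0.05. In the order TEB-distal against Gpr125-negative, nipple-proximal against Gpr125-negative, and TEB-distal against nipple-proximal, testing every gene with at least 1 count gave 137, 58 and 39 genes, of which 13, 5 and 6 were among the 40, and DESeq2 gave 943, 321 and 129, of which 22, 5 and 5 were. Leaving out each library in turn gave 0 to 747, 0 to 335 and 0 to 12 genes and 0 to 11, 0 to 2 and 0 to 2 of the 40. Of TEB-distal against Gpr125-negative, 11 of the 40 were called without Gpr125-negative 1, 10 without either nipple-proximal library, 1 without Gpr125-negative 2 and 0 without either TEB-distal library. For fits of every gene with at least 1 count or without a library, the share of all genes called is not given. Nothing is therefore read from the counts of the 40 genes called in those fits. The median log2 fold changes ranged from -5.24 to -4.12, from -4.17 to -1.69 and from -3.21 to -0.016. Without the 8 shared genes the first median was -4.93. Between TEB-distal and nipple-proximal cells the log2 fold change with 1 library left out ranged from -2.80 to 0.70 for Pecam1, -8.45 to 0.59 for Cdh5, -5.67 to 3.07 for Cldn5, -1.44 to 0.63 for Flt4, -0.86 to 3.11 for Fabp4 and -0.082 to 1.05 for Tm4sf1. The cause of these changes was not tested. Of the other values for single genes, 54 passed the threshold under an alternative and 370 kept their direction and side of it. Replicate numbers in the labels did not pair the libraries (correlation of same-numbered deviations -0.03, 0.19 and -0.00), and with a replicate block 0 genes were called, with medians of -4.74, -1.99 and -2.38. The coefficient of variation of 0.967 with 2 libraries a group limits which differences could be called.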
